A study of Macaca mulatta with 14 samples.

Results

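The microRNAs (miRNAs) of juvenile rhesus macaque testis were compared with those of neonatal testis. Of the 12 males of the series, 5 animals with 6 of the 14 libraries were used: 2 neonates of 16 and 20 days and 3 juveniles of 215, 471 and 739 days. All 538 miRNA names of the deposited table entered the comparison, and 322 of them reached 1 RPM (reads scaled by the authors to a fixed library total) in at least 3 of the 12 animals and were tested. The tissue was frozen testicle dissected after death from healthy animals that died suddenly, and no treatment or genotype distinguishes the groups. The 16-day animal gave 2 technical libraries, numbered 1 and 8, which count as 1 animal, so the design holds 3 juveniles against 2 neonates. The species is given as rhesus macaque by the organism, title and source labels, although the descriptions of the samples mention a human individual, and it was not tested. Each juvenile is a single animal of a different age, and "juvenile" and "neonate" are names given here to age ranges, so the variation among juveniles holds both age and individual.

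miRNAs are short RNAs cut from hairpin precursors that lower the output of the messenger RNAs they pair with. Many are made from clusters, where 1 transcript carries several hairpins, and members of a cluster often rise and fall together. The juvenile macaque testis is usually hormonally quiet, and its Sertoli cells, which nurse the germ cells, are immature. Its germ cells are usually gonocytes and then spermatogonia, and meiosis has usually not begun. The neonatal testis comes just before, in the period when the pituitary and the Leydig cells are briefly active after birth. The germ cell stage of the animals used here was not examined. In these bulk tissue libraries, fewer cells of a type and less RNA per cell cannot be told apart.

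The listed miRNAs held a smaller part of the reads in juvenile than in neonatal libraries. They took 63.2% and 59.3% of the reads in libraries 1 and 8 of the 16-day animal, 79.3% at 20 days, 46.2% at 215 days, 16.1% at 471 days and 27.7% at 739 days, with pairs of names that share reads counted once. The juvenile share was 30.01% ± 15.2 (SD, n = 3) and the neonatal share 70.3% ± 12.8 (SD, n = 2), a difference of -40.2 percentage points (exact two-sided permutation test over animals, p = 0.2; the 10 possible splits allow no p below 0.1). Every juvenile lay below every neonate. The libraries of these 5 animals held 4381953 to 5253505 reads, so depth was similar across them. What the other reads of each library were is not recorded in the table. Because the listed share differed between these libraries, fold changes and calls are given on the deposited scale, after a median scaling, or both. For the median scaling, the values of a library were divided by that library's median over 276 names detected throughout the series. Where a scale is not named, a level in RPM is as deposited. A median-scaled value is in RPM of a typical library and describes a miRNA relative to the other miRNAs.

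**Figure D1:**
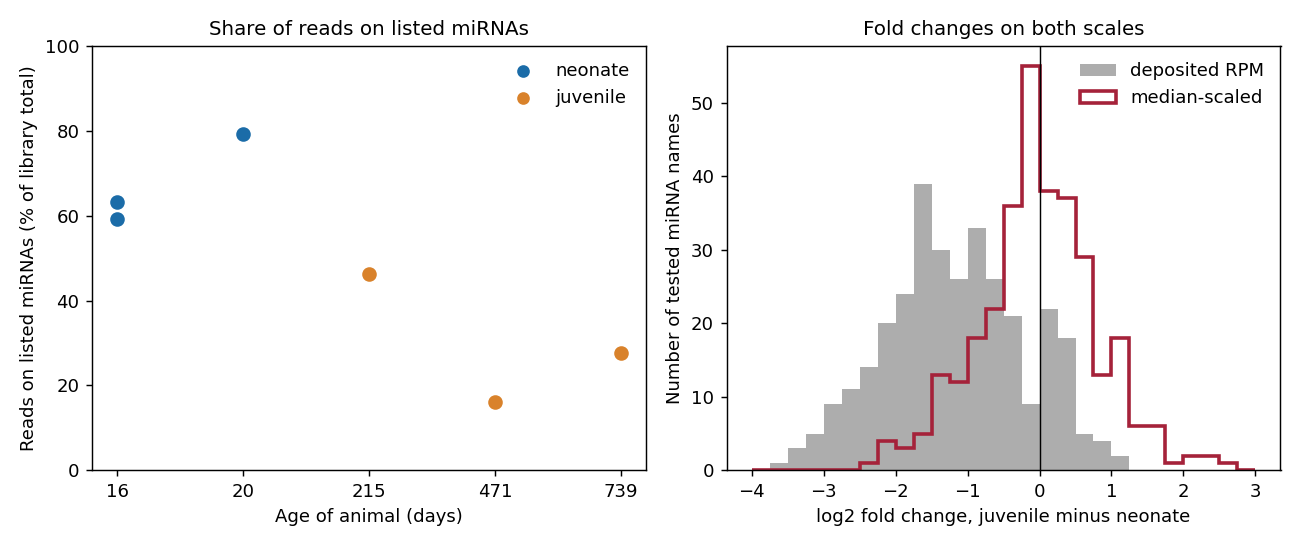
Left, the percentage of each library's reads on listed miRNAs against the age of the animal in days, with 1 point per library (2 at 16 days): the juveniles lie between 16.1% and 46.2% and the neonatal libraries between 59.3% and 79.3%. Right, the number of tested miRNA names by log2 fold change (juvenile minus neonate) on the deposited RPM, where the median is -1.18, and after median scaling, where it is -0.02.

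On the deposited scale the change was a fall. limma called 104 of the 322 tested names lower in juvenile testis (32.3% of those tested) and 0 higher (0.0%), with Benjamini-Hochberg adjusted p under 0.05. The median log2 fold change was -1.18, and 271 names had a negative value and 51 a positive one. In 210 names (65.2%) every juvenile lay below both neonates, and in 12 (3.73%) every juvenile lay above. At an unadjusted p under 0.05 limma had 153 lower names and 0 higher, and edgeR on the recovered reads, scaled to the library total, called 76 lower and 0 higher. The number of calls rested on single animals: it was 67 without the animal of 16 days, 20 without 20 days, 154 without 215 days, 42 without 471 days and 57 without 739 days. Libraries 1 to 7 hold both neonates and 1 juvenile, that of 471 days. Libraries 8 to 14 hold 1 neonate, that of 16 days, and the juveniles of 215 and 739 days. The ranges therefore compare different animals, and the median log2 fold change was -1.85 in libraries 1 to 7 alone and -0.56 in libraries 8 to 14 alone.

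After median scaling, changes ran both ways. limma called 15 names lower (4.66% of those tested) and 8 higher (2.48%), and the median log2 fold change was -0.02. Every juvenile lay below both neonates in 76 names (23.6%) and above both in 61 (18.9%). All 15 lower names were also called lower on the deposited scale, and the 8 higher names had deposited log2 fold changes of 0.00 to 1.03, none of them called. Of the 23 names, 14 were also called when libraries were scaled to the listed reads and by edgeR (TMM) and DESeq2 on the recovered reads (with median scaling, 4 relative scalings), and none took the opposite sign in any of these. Some names not called after median scaling were called by DESeq2, among them miR-127-3p, miR-15b, miR-29b, miR-372 and miR-200a. The number of calls depended on the animals: 1 name was called without 16 days (miR-29a), 0 without 20 days (32 at an unadjusted p under 0.05), 25 without 215 days, 1 without 471 days (miR-433) and 4 without 739 days (miR-433, miR-1298, miR-452 and miR-144), with the direction of all 23 names kept each time.

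The DLK1-DIO3 region, the list with the most tested names, held more of the names called lower in juvenile testis than any other list. The long noncoding transcripts of this imprinted region are expressed from the maternal chromosome and carry one of the largest miRNA clusters of placental mammals. The list, drawn up from human names, holds 59 names, of which 41 passed the filter on low values. On the deposited scale limma called 40 of the 41 lower, beside 32.3% of all tested names, with a median log2 fold change of -2.53 (range -3.62 to -0.93) beside -1.18 for all. In all 41 the 3 juveniles lay below both neonates, beside 65.2% of all tested names. After median scaling 9 of the 41 were called lower, beside 4.66% of all tested names, the median was -1.18 (range -2.21 to -0.14) beside -0.02, and all 41 values were negative. The 3 juveniles lay below both neonates in 36 of the 41 on that scale, beside 23.6% of all tested names. Of the 38 tested names with a scaled log2 fold change of -1 or lower, 24 belonged to the region. By share of tested names the blood cell list was higher, with 6 of 6 called lower as deposited and 2 of 6 after scaling.

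Summed over the 59 names, the region held 4373 and 6455 RPM in the neonates of 16 and 20 days, against 1535, 428 and 792 RPM in the juveniles of 215, 471 and 739 days. After median scaling the sums were 2139 and 2203 in the neonates and 965, 906 and 843 in the juveniles, so the animals of each group lay close together and the groups far apart. In the 7 older animals of the series the scaled sum ran from 341 to 973, which overlaps the juveniles and lies below both neonates.

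The 3 most abundant miRNAs of the region were called lower as deposited. Without the animal of 20 days none of the 3 was called, miR-411 was not called without 471 or 739 days either, and miR-485-5p not without 16, 471 or 739 days. miR-127-3p, whose gene lies antisense to the imprinted gene RTL1, had 827 and 563 RPM in the 2 libraries of the 16-day animal, 935 at 20 days, 185 at 215 days, 73.8 at 471 days and 80.2 at 739 days. The groups did not overlap, and the log2 fold change was -2.94 ± 0.76 (SE, limma adjusted p = 0.0013) on the deposited scale and -1.49 ± 0.50 (adjusted p = 0.0957) after scaling, where it was not called. miR-485-5p had 679 and 686 RPM at 16 days and 693 at 20 days, against 201, 113 and 131 RPM in the juveniles in order of age. Its scaled log2 fold change was -0.80 (adjusted p = 0.346), and the scaled values of the groups overlapped. miR-411 had 356 RPM at 16 days (the mean of the 2 libraries, as for single 16-day values from here on), 859.8 at 20 days, and 259, 56.7 and 140.2 in the juveniles. Here the 215-day juvenile came close to the 16-day neonate, and the log2 fold change was -2.11 (adjusted p = 0.0248) as deposited and -0.67 (adjusted p = 0.342) scaled.

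The 9 members called lower on both scales were miR-889, miR-433, miR-432, miR-299-5p, miR-369-3p, miR-299-3p, miR-487b, miR-382 and miR-431*. miR-889 had the lowest log2 fold change of the region on both scales, with 408 and 154 RPM in the libraries of the 16-day animal, 417 at 20 days and 75.9, 6.33 and 31.6 in the juveniles. The technical libraries differed more here than for the other members named, but both lay above all juveniles, and the log2 fold change was -3.62 ± 0.76 (limma adjusted p = 6.05e-05) as deposited and -2.21 ± 0.51 (adjusted p = 0.0221) scaled. miR-433 was even within each group: its scaled values were 145 and 141 in the neonates and 35.6, 30.8 and 34.7 in the juveniles. Its scaled log2 fold change of -2.05 ± 0.33 (adjusted p = 0.00627) had the lowest adjusted p of all 322 names, and it lay between -2.09 and -1.99 whichever animal was left out. On the deposited scale miR-889 and miR-433 were called in each of the 5 fits without an animal; after scaling miR-433 was called without 215, 471 or 739 days and not without either neonate. In the 7 older animals miR-433 ran from 3.56 to 38.1 RPM as deposited, a scale unlike that of its values above. The deposited values of the 471-day and 739-day juveniles lay within that range, and that of the 215-day juvenile lay above it. miR-487b followed the same order, with 142 and 140.3 RPM in the neonates and 38.4, 6.90 and 15.6 in the juveniles, and a scaled log2 fold change of -1.62 (adjusted p = 0.0221). miR-432 differed between the neonates as well: 70.6 RPM at 16 days, 254 at 20 days, and 30.3, 3.26 and 14.9 in the juveniles (scaled log2 fold change -2.01, adjusted p = 0.0404). miR-889, miR-433 and miR-487b were called under all 4 relative scalings, miR-382 under 3, and the other 5 members under 2.

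At the other end of the region's list stood miR-377 and miR-136. miR-377, the member not called on the deposited scale, had 2.99 and 1.71 RPM in the neonates and 1.39, 0.575 and 0.381 in the juveniles, a log2 fold change of -0.93 (adjusted p = 0.0535), and its scaled value of -0.14 was the nearest to 0 of the 41. It was named after its values were seen, as was miR-136, with a scaled value of -0.37. Among the juveniles, the 215-day animal had the highest deposited value for 40 of the 41 members and the 471-day animal the lowest for 35; over all 322 names these counts were 245 and 226. After scaling, the 471-day animal was lowest for 26 of the 41 and the 215-day animal highest for 26, whereas over all names the 471-day animal was highest for 178 and the 215-day animal lowest for 154.

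In the RefSeq annotation of the rhesus assembly T2T-MMU8v2.0, all 32 hairpin names behind the 41 members matched, to 33 genes on 1 chromosome. Between the first and the last of them lie 93 annotated genes, 45 of them miRNA genes, and RTL1 is the protein-coding gene among them. The members therefore share a chromosomal neighbourhood in the macaque, as the human names imply, and they are not 41 independent observations.

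**Figure D2:**
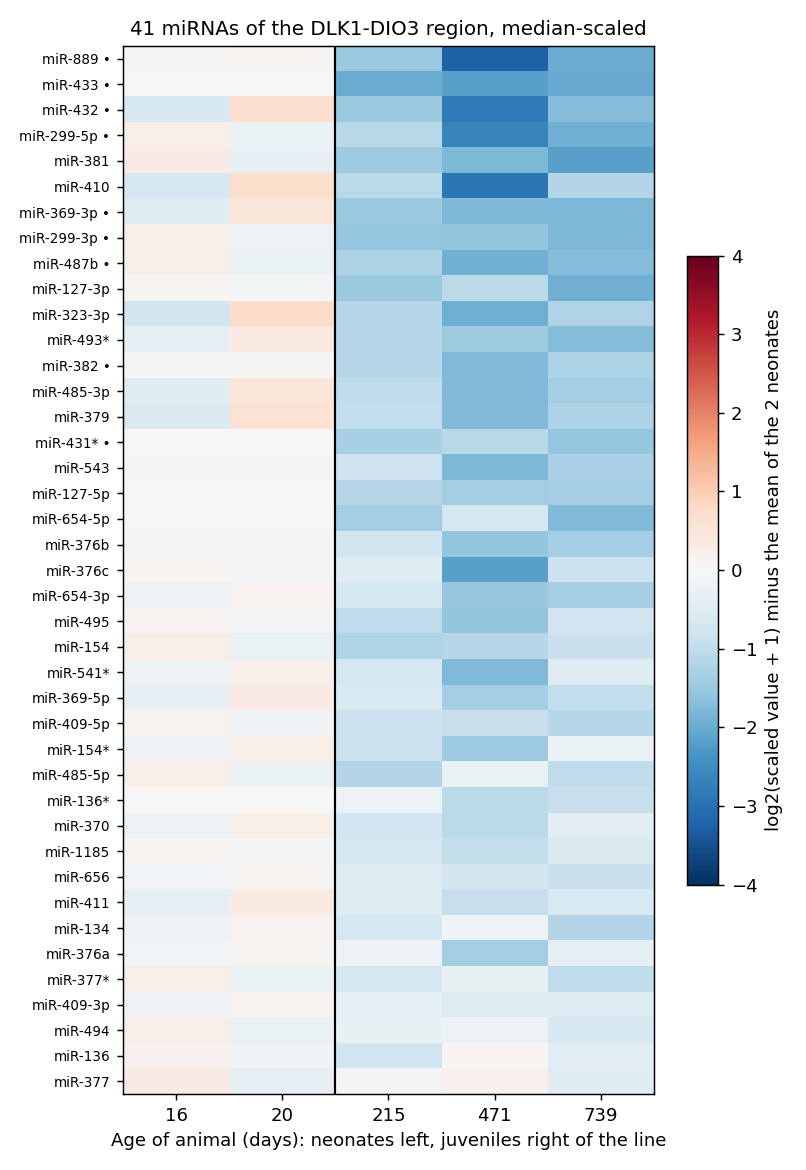
Median-scaled level of the 41 tested DLK1-DIO3 miRNAs (one line each, ordered by fold change) in the 5 animals, as log2(scaled value + 1) minus the mean of the 2 neonates; the black line parts neonates (16 and 20 days) from juveniles (215, 471 and 739 days), and a dot after the name marks the 9 called lower. Nearly all juvenile cells are blue, palest at the bottom for miR-377 and miR-136.

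After median scaling the tested values of the region were all negative in the main fit but not in every alternative. Leaving out the 16-day neonate gave 40 negative values and 1 positive, and so did leaving out the 739-day juvenile. All 41 stayed negative with any other of the 5 animals left out. Libraries 1 to 7 alone gave 39 negative and 2 positive. With no filter, 56 of the 59 names were negative and 3 positive, with a median of -0.86 and 3 called lower. The count of calls in the region depended on the animals and on the scaling. On the deposited scale it was 35 without 16 days, 13 without 20 days, 41 without 215 days, 24 without 471 days and 34 without 739 days, and 38 in libraries 1 to 7 against 1 in libraries 8 to 14. After median scaling it was 0, 0, 5, 1 and 1 without those animals in turn; it was 4 with libraries scaled to the listed reads, 3 with edgeR (TMM) and 13 with DESeq2, and all 41 values were negative under each of those 3.

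The names called higher relative to the other miRNAs were miR-31, miR-195, miR-452, miR-516b, miR-497, miR-29c, miR-29a and miR-664*. The miR-29 family, known for lowering collagens and other matrix proteins and the DNA methyltransferases, gave 2 of them. miR-29a had 3209 and 2596 RPM in the libraries of the 16-day animal, 2088 at 20 days, 3273 at 215 days, 1835 at 471 days and 2843 at 739 days. These deposited values overlapped between the groups (log2 fold change 0.07 ± 0.74, limma adjusted p = 0.949). Its scaled values were 1434 and 712 in the neonates against 2058, 3881 and 3027 in the juveniles, a log2 fold change of 1.52 ± 0.33 (adjusted p = 0.0179) with no overlap. miR-29c moved alike, from 144 and 85.3 to 216, 425 and 383 on the scaled values (1.56 ± 0.36, adjusted p = 0.0221). miR-29b, with the same seed, had a scaled log2 fold change of 1.55 that was not called (adjusted p = 0.105). The summed scaled level of the family in the 7 older animals ran from 4096 to 6215, above the juveniles of 215 and 739 days (2286 and 3437) and around that of 471 days (4356).

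miR-195 and miR-497 come from 1 cluster and share their seed with miR-15 and miR-16, miRNAs known to lower cell cycle genes. miR-195 had 31.1 and 33.1 RPM in the neonates and 59.4, 53.5 and 70.7 RPM in the juveniles, so every juvenile was higher even on the deposited scale (log2 fold change 0.90 ± 0.76, limma adjusted p = 0.326, not called). After scaling the log2 fold change was 2.29 ± 0.47 (adjusted p = 0.0166). miR-497 had 24.5 and 36.9 RPM in the neonates and 51.3, 20.5 and 49.0 in the juveniles, which overlap; the scaled log2 fold change was 1.69 ± 0.40 (adjusted p = 0.0235). Of the other members of that seed family, miR-15b, with 112 and 114 RPM in the neonates and 32.5, 11.1 and 19.6 in the juveniles, was called lower as deposited (-2.47, adjusted p = 0.007) and had a scaled value of -1.05 (adjusted p = 0.132); the deposited call ended without 16, 20 or 471 days. miR-16 had a scaled log2 fold change of -0.23 (adjusted p = 0.795). The differences between these members were not tested.

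miR-31 and miR-452 had every juvenile above both neonates on either scale. miR-31, made from a long noncoding RNA, had 39.0 and 32.2 RPM in the 16-day libraries, 44.4 at 20 days, 92.5 at 215 days, 76.5 at 471 days and 78.3 at 739 days. The log2 fold change was 1.03 ± 0.76 (limma adjusted p = 0.265) as deposited and 2.43 ± 0.64 (adjusted p = 0.0404) scaled. miR-452, an intronic miRNA of the X-linked gene GABRE in humans, had 22.6 and 32.9 RPM in the neonates and 67.5, 49.5 and 38.3 in the juveniles, with a scaled log2 fold change of 2.24 ± 0.47 (adjusted p = 0.0166). miR-664*, made from a hairpin in a small nucleolar RNA gene, had 113 and 150.4 RPM in the neonates and 191, 84.7 and 136 in the juveniles, which overlap, and a scaled log2 fold change of 1.43 (adjusted p = 0.0295). Of the 8 names, 7 were called under all 4 relative scalings and miR-31 under 2. Higher calls numbered 1, 0, 14, 0 and 1 without the animals of 16, 20, 215, 471 and 739 days.

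**Figure D3:**
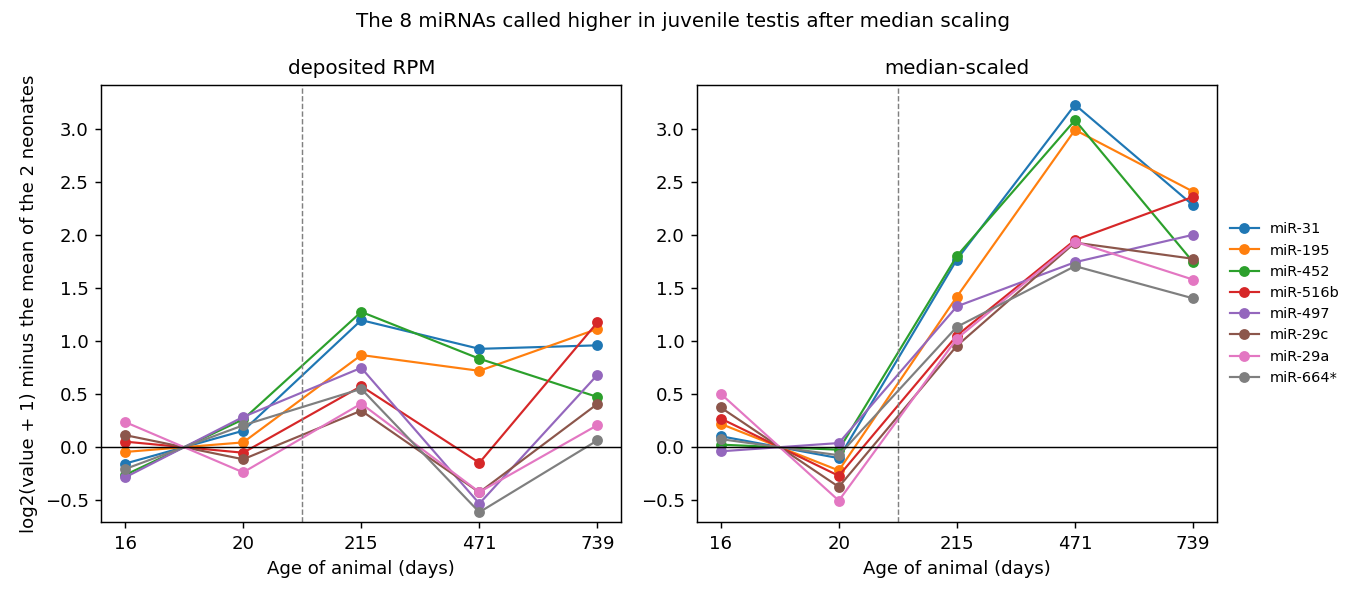
The 8 miRNAs called higher in juvenile testis after median scaling, in the 5 animals, as log2(value + 1) minus the mean of the 2 neonates; left the deposited RPM, right the median-scaled values, with the dashed line between neonates and juveniles and lines joining the values of a miRNA. As deposited 3 names (miR-31, miR-195 and miR-452) have every juvenile above both neonates, and after scaling all 8 do.

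Outside the DLK1-DIO3 region, 64 of 281 tested names were called lower on the deposited scale and 6 after median scaling: miR-144, miR-1298, miR-130b, miR-486-5p, miR-455-3p and miR-490-3p. miR-130b, a member of the miR-130 and miR-301 seed family, had 149 and 156 RPM in the 16-day libraries, 189 at 20 days, 33.7 at 215 days, 8.24 at 471 days and 17.5 at 739 days. The groups were well apart, with a log2 fold change of -3.24 ± 0.76 (limma adjusted p = 0.00036) as deposited and -1.82 ± 0.37 (adjusted p = 0.0166) scaled. It was called as deposited whichever animal was left out, and in the 7 older animals it ran from 5.99 to 30.0 RPM. miR-1298, an X-linked miRNA, had 23.6 and 18.3 RPM in the 16-day libraries and 15.6 at 20 days, against 1.78, 0.192 and 1.52 RPM in the juveniles. Its scaled log2 fold change was -2.09 ± 0.44 (adjusted p = 0.0166), and the juvenile values rest on few reads. miR-455-3p and miR-490-3p were lower still in abundance: miR-490-3p had 2.55 and 9.90 RPM in the neonates, 1.39 at 215 days and 0 reads at 471 and 739 days. Both were called on the 2 scales given here, and under 2 (miR-455-3p) and 1 (miR-490-3p) of the 4 relative scalings. Over all tested names, lower calls after scaling numbered 0, 0, 11, 1 and 3 without the animals of 16, 20, 215, 471 and 739 days.

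The blood cell miRNAs that passed the filter were lower in juvenile testis. Of 11 names, 6 passed the filter, and limma called all 6 lower as deposited, beside 32.3% of all tested names (median log2 fold change -2.22 beside -1.18). After scaling it called 2 of them, miR-144 and miR-486-5p, beside 4.66% (median -0.83 beside -0.02). The summed level was 548 RPM at 16 days and 500 at 20 days, against 164, 47.5 and 125 RPM in the juveniles in order of age. miR-144, made with miR-451 in red cell precursors, had 20.9 and 11.9 RPM in the 16-day libraries, 16.4 at 20 days, 0.990 at 215 days, 0 reads at 471 days and 0.762 at 739 days. That is the lowest scaled log2 fold change of all tested names, -2.41 ± 0.45 (adjusted p = 0.0161). miR-451, a red cell miRNA that is matured by the Argonaute protein in place of Dicer, had 374 and 216 RPM in the neonates and 99.4, 33.4 and 61.9 in the juveniles. It was called lower as deposited (-2.24, adjusted p = 0.0162), and after scaling the groups still did not overlap (-0.80, adjusted p = 0.434). miR-142-5p, a miRNA of white blood cells, had 69.2 and 166 RPM in the neonates and 39.8, 5.37 and 46.7 in the juveniles, with overlap after scaling (-0.81, adjusted p = 0.571). The 5 names below the filter, miR-142-3p, miR-150, miR-150*, miR-223 and miR-223*, reached at most 1.52 RPM, and miR-150* had 0 reads in all juveniles. With no filter, 8 of the 11 scaled log2 fold changes were negative and 3 positive, the highest 0.66. The calls on the deposited scale numbered 5, 1, 5, 4 and 4 without the animals of 16, 20, 215, 471 and 739 days, and after scaling 0, 0, 1, 0 and 1. The 6 tested blood miRNAs moved in the same direction as those of the DLK1-DIO3 region, and their part in that result was not tested. After scaling, the blood sum was 267 and 171 in the neonates, 103, 101 and 133 in the juveniles and 53.4 to 259 in the 7 older animals.

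The most abundant miRNAs of the testis had lower RPM in every juvenile, and none of those named here was called after scaling. let-7f, the most abundant, had 192413 and 240854 RPM in the neonates and 147343, 51319.6 and 91327 in the juveniles, a log2 fold change of -1.28 (limma adjusted p = 0.139) as deposited and 0.17 ± 0.20 (adjusted p = 0.702) scaled. The let-7 family, known for promoting differentiation, had 3 of its 10 tested names called lower as deposited, near the 32.3% of all tested names, and 0 called after scaling, with scaled values from both signs (6 negative, 4 positive) and a median of -0.21. Its members are near-identical, so their separate values are uncertain. miR-199a-3p, a mesenchymal miRNA whose reads cannot be told from those of miR-199b-3p, had 103088 and 151883 RPM in the neonates and 78911, 14141 and 44523 in the juveniles. It was called lower as deposited (-1.76, adjusted p = 0.0492) and not after scaling (-0.31, adjusted p = 0.605). Of its list with miR-214, 4 of 5 tested names were called lower as deposited and 0 after scaling, beside 32.3% and 4.66% of all tested names; 2 of the 4 are the names that share reads. miR-199a-3p was called without 215 days and not without any other of the 5 animals.

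In most other groups the deposited share of calls is read against the 32.3% of all tested names called lower, and the share after median scaling against 4.66%. miR-143, from smooth muscle and the peritubular cells, had 4539.6 and 9641 RPM in the neonates and 3701, 801 and 1843 in the juveniles (-1.89, limma adjusted p = 0.0367 as deposited; -0.44, adjusted p = 0.667 scaled). The X-linked cluster of miR-424, miR-503, miR-542 and miR-450 had 5 of 7 tested names called lower as deposited and 0 after scaling, where the median was -0.45 and all 7 values were negative, beside 169 of 322 over all names. miR-10b, from the HOXD cluster, had 3966 and 3679.8 RPM in the neonates and 1339, 515 and 754 in the juveniles, called as deposited (-2.24, adjusted p = 0.0136) and not after scaling (-0.79, adjusted p = 0.121), although the groups did not overlap on either scale; DESeq2 called it lower (adjusted p = 0.00884). Without the animal of 20 days neither miR-143 nor miR-10b nor any of those 7 names was called on the deposited scale, and of the 5 fits without an animal, miR-143 and miR-10b were called in that without 215 days. The miR-17-92 clusters had 2 of 8, the miR-181 family 2 of 7, the miR-125, miR-100 and miR-99 list 2 of 10, miR-126 of the endothelium 1 of 2 (miR-126*), and the neuronal list 1 of 9 (miR-128) called lower as deposited, with scaled medians of -0.22, -0.29, -0.18, -0.37 and 0.09; apart from miR-126, with 2 tested names, these shares lie below the 32.3% of all tested names. The miR-30 family had 0 of 10 called on either scale and a scaled median of 0.27.

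**Figure D4:**
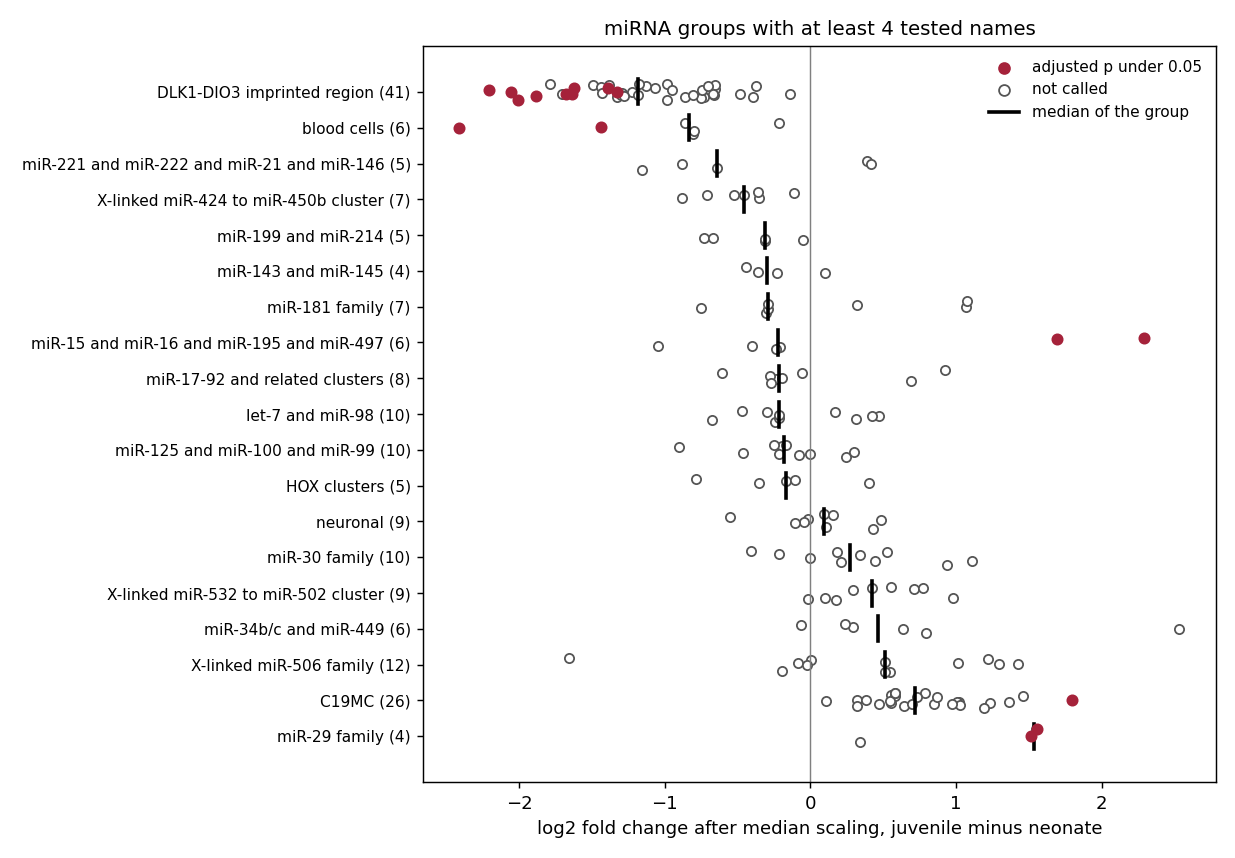
Median-scaled log2 fold change (juvenile minus neonate) of every tested name in the groups with at least 4 tested names (number in brackets), with names called by limma in red and the median of the group as a black bar; the vertical spread within a line has no meaning. DLK1-DIO3 (median -1.18) and blood cells (-0.83) lie farthest left and the miR-29 family (1.54) farthest right.

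Of the lists that mark germ cells or testis, that of miR-221, miR-222, miR-21 and miR-146, linked to undifferentiated spermatogonia, had 3 of 5 tested names called lower as deposited (miR-221, miR-221* and miR-222) and 0 after median scaling, beside 32.3% and 4.66% of all tested names, with a scaled median of -0.64. miR-221 had 219.9 and 632 RPM in the neonates and 92.1, 35.5 and 66.5 in the juveniles, below both neonates in each juvenile and on each scale (-2.60, limma adjusted p = 0.00464 as deposited; -1.16, adjusted p = 0.102 scaled). It was called lower by edgeR with TMM (adjusted p = 0.0482) and by DESeq2 (adjusted p = 0.00431), and DESeq2 also called miR-221* (adjusted p = 0.0231). As deposited none of the 3 was called without 20 days, and miR-221* and miR-222 were not called without 471 or 739 days. miR-21 from the same list had a scaled value of 0.41.

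The X-linked miR-506 family, a testis family of primates, was present in all 5 animals: its 12 names summed to 3597 and 4649 RPM in the neonates and 3582, 1274 and 2345 RPM in the juveniles, and after scaling to 1761 and 1586 against 2252, 2695 and 2496. limma called 1 of the 12, miR-509-5p, lower as deposited, beside 32.3% of all tested names, and 0 after scaling. On the scaled values 6 of the 12 had every juvenile above both neonates, beside 18.9% of all tested names, and the median was 0.51. The sums and counts of this family hold miR-513b and miR-513c, which share reads, as separate names. miR-509-5p was not called as deposited without 20, 471 or 739 days. miR-510, the most abundant, had 1775 and 2583 RPM in the neonates and 1649.9, 817 and 1109.6 in the juveniles (-0.90, adjusted p = 0.318 as deposited; 0.55, adjusted p = 0.28 scaled). The miR-34b/c and miR-449 group, which rises when germ cells enter meiosis, separated 1 juvenile from the rest. miR-34c-5p had 152 and 138 RPM in the 16-day libraries, 49.9 at 20 days, 52.7 at 215 days, 985 at 471 days and 121 at 739 days. On this scale the 471-day animal alone stood above the 16-day libraries, and the log2 fold change was 1.11 ± 1.88 (limma adjusted p = 0.663). After scaling the values were 72.7 and 17.0 in the neonates and 33.1, 2084 and 129 in the juveniles, so the 739-day animal also lay above both neonates and the 215-day animal between them. The scaled log2 fold change of 2.54 ± 2.36 was the highest of all 322 names and was not called (adjusted p = 0.631); it ran from 0.88 to 3.85 with each animal left out. The scaled sum of the miR-34b/c and miR-449 group was 2098 at 471 days. In the 7 older animals it ran from 122 to 61882, with 405 at 1205 days and 122 at 1487 days. Whether meiosis had begun in the 471-day animal was not tested. The 471-day library also had the lowest listed share of the 5 animals, and results without it are given above.

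The X-linked cluster of miR-532, miR-502, miR-660 and their neighbours had 0 of 9 tested names called on either scale, with a scaled median of 0.43. miR-502-3p from it had 87.4 and 107 RPM in the neonates and 80.4, 40.8 and 69.3 in the juveniles, lower in each juvenile as deposited and higher in each after scaling (scaled 0.77, adjusted p = 0.258).

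Markers of other tissues were examined as a check of the dissection. None of the 4 names of the epididymal miR-888 cluster reached the filter. miR-122, a liver miRNA, had 265 and 241 RPM in the 16-day libraries, 41.9 at 20 days, 104 at 215 days, 25.3 at 471 days and 13.1 at 739 days, with the 16-day libraries above the other 4 animals. Its log2 fold change was -1.62 (limma adjusted p = 0.0786) as deposited and -0.21 (adjusted p = 0.92) scaled, where it ran from -1.74 to 1.31 with each animal left out. miR-1, of striated and smooth muscle, had 2520.4 and 3376 RPM in the neonates and 1746, 621 and 577 in the juveniles (scaled -0.31, limma adjusted p = 0.787). miR-206, of skeletal muscle, was 40.2 RPM at 215 days and at most 6.16 RPM in the other 4 animals (scaled log2 fold change 0.999, adjusted p = 0.702). The epithelial miR-200a lay between 2.86 and 5.37 RPM in all 5 animals (scaled 1.33, adjusted p = 0.159). miR-182, of the miR-183 cluster, had 8.11 and 7.80 RPM in the neonates and 2.57, 2.68 and 1.14 in the juveniles, called lower as deposited (-1.55, adjusted p = 0.0276) and not after scaling (-0.34, adjusted p = 0.739). miR-132 was called likewise (-1.23, adjusted p = 0.0293 as deposited; -0.31, adjusted p = 0.744 scaled); miR-182 was not called without 16, 20 or 739 days, and miR-132 not without those or 471 days. miR-675, from the imprinted H19 transcript, had 1.38 and 5.14 RPM in the neonates and 0.792, 0.383 and 0.381 in the juveniles, and stayed below the filter.

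The C19MC cluster, a primate cluster best known from placenta, had 26 of 51 names tested, most of them at few reads, and summed to 46.8 and 44.0 RPM in the neonates and 40.8, 57.9 and 95.2 RPM in the juveniles. limma called 0 of the 26 as deposited (median log2 fold change 0.27) and 1, miR-516b, higher after scaling. Over all tested names limma called 32.3% lower and 0.0% higher as deposited, and 2.48% higher after scaling. All 26 scaled values were positive, beside 153 of 322 over all names, and their median was 0.72. miR-516b had 11.2 and 10.3 RPM in the 16-day libraries, 9.90 at 20 days and 15.8, 9.20 and 24.6 in the juveniles, which overlap as deposited; its scaled log2 fold change was 1.80 ± 0.48 (adjusted p = 0.0404). Many of the 26 passed the filter through the older animals, where the cluster summed to 95.3 to 436 RPM, so the count over those that passed is a description. From the miR-302 and miR-371 clusters of pluripotent and early germ cells, miR-372 had 58.7 and 28.2 RPM in the neonates and 40.4, 104 and 88.2 in the juveniles (scaled 2.21, adjusted p = 0.0861), and miR-371-5p had a scaled value of 1.18 (adjusted p = 0.305).

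The 2 arms of a hairpin come from 1 precursor, so they give a second reading of it. Of 69 hairpins with both arms tested, 24 had both arms at 10 RPM or more on average over the 5 animals. The median absolute difference between the scaled log2 fold changes of the 2 arms was 0.44, and 3 hairpins exceeded 1: miR-509 (1.57), miR-513a (-1.32) and miR-508 (1.01, the more abundant arm minus the other), all of the miR-506 family and picked out here by that difference. The 5p arm of miR-509 had 68.6 and 58.0 RPM in the 16-day libraries, 51.4 at 20 days, 50.1 at 215 days, 3.26 at 471 days and 0.762 at 739 days. The 3p arm had 96.7 and 81.5 RPM, 151, 130.1, 20.1 and 23.8 in the same order. Both arms were high in the neonates and the 215-day juvenile and low in the juveniles of 471 and 739 days, and the 5p arm was the lower of the pair by far at 739 days. Over the 24 hairpins, the 2 arms had scaled values of the same sign in 16. The 5 hairpins of the DLK1-DIO3 region in this set, miR-127, miR-299, miR-369, miR-409 and miR-485, had negative scaled values for both arms. This follows from all 41 tested names of the region being negative. Hairpins outside the region, such as miR-221, miR-424 and miR-99b, also had both arms negative. The differences between arms were not tested.

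**Figure D5:**
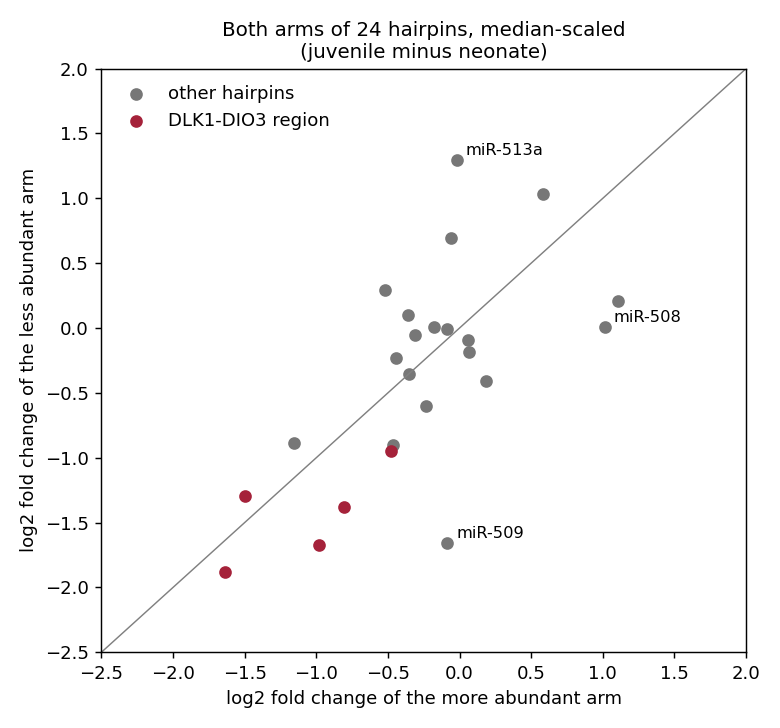
Median-scaled log2 fold change (juvenile minus neonate) of the more abundant arm against that of the less abundant arm for the 24 hairpins with both arms at 10 RPM or more, with the line of equality in grey and hairpins of the DLK1-DIO3 region in red. The 5 red points lie in the lower left corner, and the 3 labelled hairpins, of the miR-506 family, differ between arms by more than 1.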

How the data were processed

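Small RNA libraries of 12 animals were analysed; the comparison used 6 libraries of 5 animals. The authors deposited 1 table of RPM values for 538 miRNA names. Per the submitters' processing notes CASAVA 1.4 and Bowtie were used, without a stated role; build, annotation, mapping parameters and the reads behind the RPM total were not given in the sources used here. Low values rise in steps of 1 read, and 100% of values came out whole (within 0.01 reads), which gave back reads and library totals. The reads carry no molecular identifiers here, so PCR copies cannot be told from separate molecules and read numbers are not counts of molecules. miR-199b-3p and miR-199a-3p (3079138 and 3080860 reads over all libraries) had read numbers within 2% of each other in every library, as had miR-513c and miR-513b (21672 each), and either pair entered the listed share once.

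miRNAs were tested with limma 3.58.1 (R 4.3.3; trend, robust) on log2(RPM + 1), 12 animals in 1 model of 5 stages, technical libraries averaged on the log2 scale (displayed 16-day values are arithmetic means), names with at least 1 RPM in at least 3 animals, Benjamini-Hochberg over 322 names, threshold 0.05. A fold change is thus on the log2(value + 1) scale, where that of a low miRNA is understated. The share of reads was tested with an exact permutation test. Alternatives were median scaling, scaling to the listed reads, pseudocounts of 0.1 and 10, other filters, the 5 animals alone, library ranges 1 to 7 and 8 to 14 (the labels do not call them batches), each animal left out, and count tests of the recovered reads with edgeR 4.0.16 (17 names called with TMM, 76 with the library total) and DESeq2 1.42.0 (47). limma was tested on simulated data with equal numbers of raised and lowered names. That test does not bear on the change in listed share.

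Named miRNAs were the first 15 in each direction past the threshold at a mean of at least 10 RPM without overlap, on each scale, the 3 most abundant of each list, the 5 most abundant of each stage, and every tested member of lists with at most 5; others are said to be named after their values were seen, or belong to a count given in full. The comparison, the lists and the rule were chosen with earlier results of these data known. Lists follow human names.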

Additional observations from a re-analysis of the deposited data

How the results depend on the processing

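Of the 104 names called on the deposited scale all that were tested kept their direction under every alternative except libraries 8 to 14 alone, where 102 did; the log2 fold change of miR-126* was 0.13 there. The count was 68 with a pseudocount of 0.1, 53 with the filter at 10 RPM, 67 with the library number range as a term and 3 in libraries 8 to 14 alone, and from 20 to 154 with each animal left out in turn. All calls in either direction numbered 23 after median scaling (15 lower, 8 higher), 16 scaled to the listed reads (9 and 7), 17 with edgeR and TMM (9 and 8) and 47 with DESeq2 (26 and 21). After median scaling the 23 calls became 15 with a pseudocount of 0.1, 13 without a filter, 12 with only library 8 of the 16-day animal, 10 in libraries 1 to 7, 7 in libraries 8 to 14, and 0 to 25 with each animal left out. The difference in listed share ran from -49.3 to -31.2 percentage points with each animal left out. The cause of these changes was not tested; fewer animals or names enter several of them. No paired analysis was possible because the replicate numbers name technical libraries of 1 animal. With 2 neonates, a fold change rests on few animals. In the main fit its standard error draws on the spread within stages over all 12 animals. Low names rest on few reads: 3 reads were worth about 0.61 RPM in library 1.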
